A study of Mus musculus with 3 samples.

Results

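The replication-dependent histone genes are the tandemly clustered genes that supply the H1, H2A, H2B, H3 and H4 proteins of newly made chromatin. They were taken as every gene whose symbol, or an older symbol listed for it, begins with Hist1h, Hist2h, Hist3h or Hist4h, or whose current name has the H1-, H2ac, H2bc, H3c or H4c form. This gave 71 genes of the 49997 in the RefSeq annotation, of which 67 are protein coding and 4 are pseudogenes. The array carried probes credited to 46 of them, out of 20886 named genes with a probe. A total of 39 members had a probe well above background on all 3 arrays and carry the comparisons. Of the others, 3 (H1f6, H2ac6 and H2ac8) were above background on some arrays and 4 (H1f3, H2bc3, H2bc22 and H2bc23) on none. The other 25 had no probe credited to them through a RefSeq accession. By family, the 39 measured members were 4 of 6 H1 genes, 11 of 21 H2A, 8 of 19 H2B, 7 of 12 H3 and 9 of 13 H4.

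DNA is wrapped around octamers of the core histones H2A, H2B, H3 and H4, and H1 binds the linker DNA between them. The replication-dependent genes are transcribed mainly in S phase, when a dividing cell needs histones for both daughter genomes, and an activated T cell divides rapidly. Their messengers lack introns and normally end in a conserved stem-loop in place of a poly(A) tail, bound by the stem-loop binding protein Slbp. Replacement histones such as H2A.Z and H3.3 come from separate, polyadenylated messengers made throughout the cycle. Some replication-dependent genes also give polyadenylated transcripts, mainly in cells that leave the cycle.

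The study measured messenger levels in CD4+ T cells by 1-colour microarray, asking how activated T cells differ without Dll1 or without Rbpj. Dll1 is a Notch ligand, and the transcription factor Rbpj binds DNA with cleaved Notch at its target genes. Each group was 1 array of RNA from stimulated CD4+ cells of female C57BL/6 mice aged 8 weeks, taken after 2 days: Rbpj-/- (Rbpj KO), Dll1-/- (Dll1 KO) and wild type (WT). The sources used here do not give which cells carried each deletion, how they were stimulated or whether animals were pooled. With 1 array per group there is no measure of variation between animals and no test, so every difference below describes these 3 arrays. Both comparisons with WT use the same WT array.

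A level is the log2 processed signal of a probe minus the 75th percentile of its array, so 0 is that percentile's signal, and a difference of 1 is 2-fold. The 75th percentile was 7.14 in Rbpj KO, 7.28 in Dll1 KO and 7.47 in WT on the log2 scale, and 47.3%, 50.1% and 46.6% of probes in Rbpj KO, Dll1 KO and WT were well above background. Spots of 1 probe repeated on an array had a median SD of 0.058 to 0.068 on the log2 scale. The highest of these gives a typical spot error of 0.0957 for a difference between arrays, which is not an upper limit. The 95th percentile of the SD was 0.20 to 0.26, and the highest of these gives an error of 0.36. The single Dll1 probe did not exceed background on any of the arrays, so it checks no label. The 2 Rbpj probes stood at -0.35 and -0.66 in Rbpj KO minus WT and at 0.33 and 0.24 in Dll1 KO minus WT. Where these probes lie relative to the deletion was not analysed here. Cd3e, a subunit of the T cell receptor complex, had levels of 6.68 in Rbpj KO, 6.80 in Dll1 KO and 6.75 in WT, and Cd4 had 2.31 in Rbpj KO, 1.89 in Dll1 KO and 1.93 in WT. The summed level of 3 of 5 B cell markers measured on all arrays was 13.9 in Rbpj KO, 20.5 in Dll1 KO and 20.7 in WT, in multiples of the 75th percentile signal. Of the other B cell markers, Cd79a was above background in both knockouts and was 1.13 higher on the log2 scale in Rbpj KO than in Dll1 KO, and Pax5 could not be compared. The sum of both CD8 markers was 0.798 in Rbpj KO, 1.21 in Dll1 KO and 1.23 in WT. The first of 2 Cd8a probes had a signal of 16.95 in Rbpj KO, where the lowest signal well above background was 15.8. For 4 of 5 CD4 T cell markers the sum was 383 in Rbpj KO, 354 in Dll1 KO and 386 in WT. Of 5 macrophage and 5 dendritic cell markers, 1 of each list (Csf1r and Siglech) was measured on all arrays, as were 2 of 4 NK cell markers (Klrd1 and Tyrobp), and Adgre1, Cd14, Itgax, Flt3, Zbtb46 and Xcr1 were not above background on any. Klrd1 stood at 0.46 in Rbpj KO minus WT and -0.02 in Dll1 KO minus WT, and Tyrobp at -0.24 in Rbpj KO minus WT and 1.11 in Dll1 KO minus WT. Csf1r stood at 0.34 in Rbpj KO minus WT and 0.17 in Dll1 KO minus WT. Siglech had levels of 9.26 in Rbpj KO, 9.22 in Dll1 KO and 9.07 in WT, above those of Cd3e. Which messengers its probes read was not analysed here, so it is no measure of dendritic cells. In bulk RNA, fewer cells of a type and less RNA per cell cannot be told apart.

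The promoters of 6 members on which the comparisons turn are shown here. H4c4 and H4c12 are H4 genes of the main cluster with low values in Dll1 KO. H2ac12 stands for a group of H2A probes with near-equal differences, and H3c8 had the lowest member value in Rbpj KO minus WT. H2bc18 and H2aw belong to the members that were higher in Rbpj KO and lower in Dll1 KO than in WT. The windows run from 250 bases before to 50 after the RefSeq transcription start on GRCm38.p6, written 5′ to 3′ on the gene's strand. They are chr13:23581318-23581617 (H4c4, plus strand), chr13:21750504-21750803 (H4c12, minus), chr13:22035594-22035893 (H2ac12, minus), chr13:23535168-23535467 (H3c8, plus), chr3:96269450-96269749 (H2bc18, plus) and chr11:58954435-58954734 (H2aw, plus). Capitals mark, on either strand, matches to CCAAT, to the TATA box letters TATAAA, to the octamer ATTTGCAT, and to GGTCCG, a core of the H4-specific promoter element.
H4c4: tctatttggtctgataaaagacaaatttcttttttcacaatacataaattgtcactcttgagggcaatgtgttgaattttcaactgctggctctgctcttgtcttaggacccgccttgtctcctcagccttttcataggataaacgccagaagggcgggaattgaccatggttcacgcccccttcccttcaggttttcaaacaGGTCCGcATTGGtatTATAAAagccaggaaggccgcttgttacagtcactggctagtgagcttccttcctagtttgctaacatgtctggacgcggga
H4c12: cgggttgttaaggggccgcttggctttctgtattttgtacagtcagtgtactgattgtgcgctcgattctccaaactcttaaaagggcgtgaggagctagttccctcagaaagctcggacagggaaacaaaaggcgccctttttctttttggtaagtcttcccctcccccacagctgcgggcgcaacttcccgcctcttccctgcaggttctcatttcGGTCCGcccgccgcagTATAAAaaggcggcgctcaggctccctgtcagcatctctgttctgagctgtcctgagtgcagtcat
H2ac12: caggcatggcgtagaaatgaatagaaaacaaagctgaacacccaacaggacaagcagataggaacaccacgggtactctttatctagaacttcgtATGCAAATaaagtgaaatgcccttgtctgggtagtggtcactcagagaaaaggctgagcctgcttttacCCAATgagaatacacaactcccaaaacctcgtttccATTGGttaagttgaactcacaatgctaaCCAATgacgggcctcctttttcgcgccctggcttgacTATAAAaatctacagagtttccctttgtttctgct
H3c8: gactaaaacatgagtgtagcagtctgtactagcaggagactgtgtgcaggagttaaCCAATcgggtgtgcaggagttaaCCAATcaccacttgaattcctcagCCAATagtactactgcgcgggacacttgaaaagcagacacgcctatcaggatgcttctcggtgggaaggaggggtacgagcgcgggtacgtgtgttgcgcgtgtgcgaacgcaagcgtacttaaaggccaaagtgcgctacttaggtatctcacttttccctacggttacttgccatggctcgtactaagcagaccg
H2bc18: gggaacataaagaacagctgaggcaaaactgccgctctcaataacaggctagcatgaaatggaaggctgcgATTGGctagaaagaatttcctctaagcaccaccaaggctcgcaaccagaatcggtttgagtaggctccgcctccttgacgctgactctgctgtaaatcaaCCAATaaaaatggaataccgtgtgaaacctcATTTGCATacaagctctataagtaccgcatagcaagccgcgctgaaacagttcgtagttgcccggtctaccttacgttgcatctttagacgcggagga
H2aw: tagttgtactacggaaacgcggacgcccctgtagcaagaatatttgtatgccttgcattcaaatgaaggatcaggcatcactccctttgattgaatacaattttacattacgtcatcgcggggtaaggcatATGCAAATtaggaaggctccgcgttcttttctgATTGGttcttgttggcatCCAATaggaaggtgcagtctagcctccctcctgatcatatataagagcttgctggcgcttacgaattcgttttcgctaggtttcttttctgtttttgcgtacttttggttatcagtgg
The H4c4 and H4c12 windows both hold GGTCCG shortly before a TATA box. Not all H4 windows share this order. That of H4f16, also low in Dll1 KO, holds GGTCCG and no TATAAA, and in that of H4c9 TATAAA comes first. The octamer appears in the H2ac12, H2bc18 and H2aw windows, and the H3c8 window holds repeated CCAAT letters and no TATAAA.

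Most measured histone genes had lower levels in each knockout than in WT. The median over 39 members was -0.23 in Rbpj KO minus WT, and over 40 members it was -0.26 in Dll1 KO minus WT, on the log2 scale. Across all measured genes the medians were -0.07 and -0.03. In Rbpj KO, 29 of 39 members lay below WT, where 60.2% of all measured genes did. In Dll1 KO, 36 of 40 lay below WT, against 55.7% of all measured genes. The members counted cannot be read as separate measurements, since probes for near-identical family members may hybridise to several of them. The single differences were small. Of 39 members, 5 in Rbpj KO minus WT and 1 in Dll1 KO minus WT were within the typical spot error of 0.0957. Both members' medians were smaller in size than the larger error of 0.36 from the 95th percentile of the spot SD. That error is for a difference between single spots and does not measure the error of a median over members.

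Few members were 1.5-fold or more from WT. In Rbpj KO, H3c8 and H3c1 were at least 1.5-fold lower, 2 of 39 members, beside 6.91% of all measured genes. H2bu2 alone was at least 1.5-fold higher in Rbpj KO, beside 4.86% of all genes. In Dll1 KO, H2bc21, H4c4 and H4f16 were at least 1.5-fold lower, 3 of 40 members, beside 2.25% of all genes, and no member was at least 1.5-fold higher, beside 1.95%. No member was 2-fold from WT in either direction, beside 1.38% of genes higher and 2.15% lower in Rbpj KO, and 0.373% higher and 0.745% lower in Dll1 KO. The members' medians lay below those of all genes in both comparisons under all scalings tried. Scaling to the E1A spike-in spots moved the median of all genes itself to -0.66 in Rbpj KO minus WT and -0.19 in Dll1 KO minus WT, and the members' medians to -0.81 and -0.43. Under that scaling H2bu2, at 0.07, was the only member above WT in Rbpj KO, so each higher value given below for the other 9 members above WT turns negative there.

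**Figure D1:**
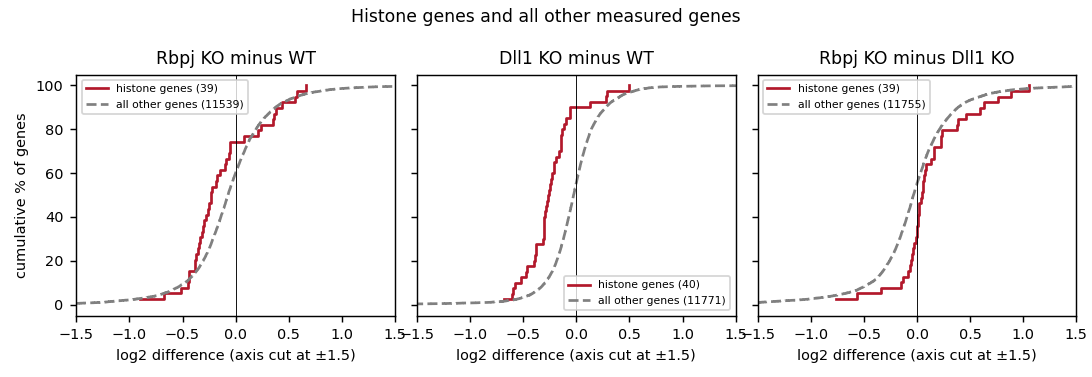
Cumulative share of genes (y axis, %) by log2 difference (x axis) for the histone genes (solid red) and all other measured genes (dashed grey), in 3 panels (Rbpj KO against WT, Dll1 KO against WT, Rbpj KO against Dll1 KO). The histone median is -0.23 in Rbpj KO minus WT and -0.26 in Dll1 KO minus WT, left of the median of the other genes at -0.07 and -0.03.

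The H4 genes had low values in both knockouts. H4, which pairs with H3 in the nucleosome core, is encoded by many genes that specify a nearly identical protein. The median over 9 genes was -0.38 in Rbpj KO minus WT and -0.47 in Dll1 KO minus WT. It stayed below 0 in Dll1 KO under every alternative tried, but in Rbpj KO it was 0.17 when only the upper rows of the array were used, which hold 2 of the H4 probes above background. Of the 9 genes, 7 lay below WT in Rbpj KO and 8 in Dll1 KO.

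H4c4 (older name Hist1h4d) had levels of 6.24 in Rbpj KO and 6.02 in Dll1 KO, against 6.62 in WT. Both knockouts were lower than WT, by 1.30-fold in Rbpj KO and by 1.52-fold in Dll1 KO. H4f16 (Hist4h4), the single member on chromosome 6, had levels of 4.50 in Rbpj KO and 4.34 in Dll1 KO, against 4.94 in WT. Its distance to WT was 1.35-fold in Rbpj KO and 1.52-fold in Dll1 KO, and a second H4f16 probe was not above background on any array. After normexp background correction and quantile normalization, the Dll1 KO minus WT values were -0.48 for H4c4 and -0.58 for H4f16, which lie inside 1.5-fold.

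H4c12 (Hist1h4k) was measured by 2 probes. The first had signals of 18846 in Rbpj KO and 19915 in Dll1 KO, against 35270 in WT, and the second 2400 in Rbpj KO and 2284 in Dll1 KO, against 3769 in WT. Both probes put the knockouts below WT, at -0.58 and -0.32 in Rbpj KO minus WT and at -0.63 and -0.53 in Dll1 KO minus WT. H4c17 (Hist1h4m) had levels of 0.44 in Rbpj KO and 0.57 in Dll1 KO, against 0.95 in WT, a difference of -0.52 in Rbpj KO and -0.39 in Dll1 KO. H4c11 stood at -0.38 in Rbpj KO minus WT and -0.47 in Dll1 KO minus WT. H4c3 differed between the knockouts, with -0.06 in Rbpj KO minus WT and -0.52 in Dll1 KO minus WT.

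Other H4 probes gave mixed values. H4c14 (Hist2h4) had 1 probe at -0.39 in Rbpj KO minus WT and -0.52 in Dll1 KO minus WT, with a signal of 27483 in WT. Its second probe, with a signal of 82.9 in WT, stood at -0.08 in Rbpj KO minus WT and -0.07 in Dll1 KO minus WT. The 2 probes of H4c9 (Hist1h4i) had opposite signs, with -0.23 and 0.39 in Rbpj KO minus WT and -0.46 and 0.14 in Dll1 KO minus WT, so the gene has no settled direction. H4c8 (Hist1h4h) was the exception among single-probe H4 genes, at 0.36 in Rbpj KO minus WT and 0.13 in Dll1 KO minus WT.

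**Figure D2:**
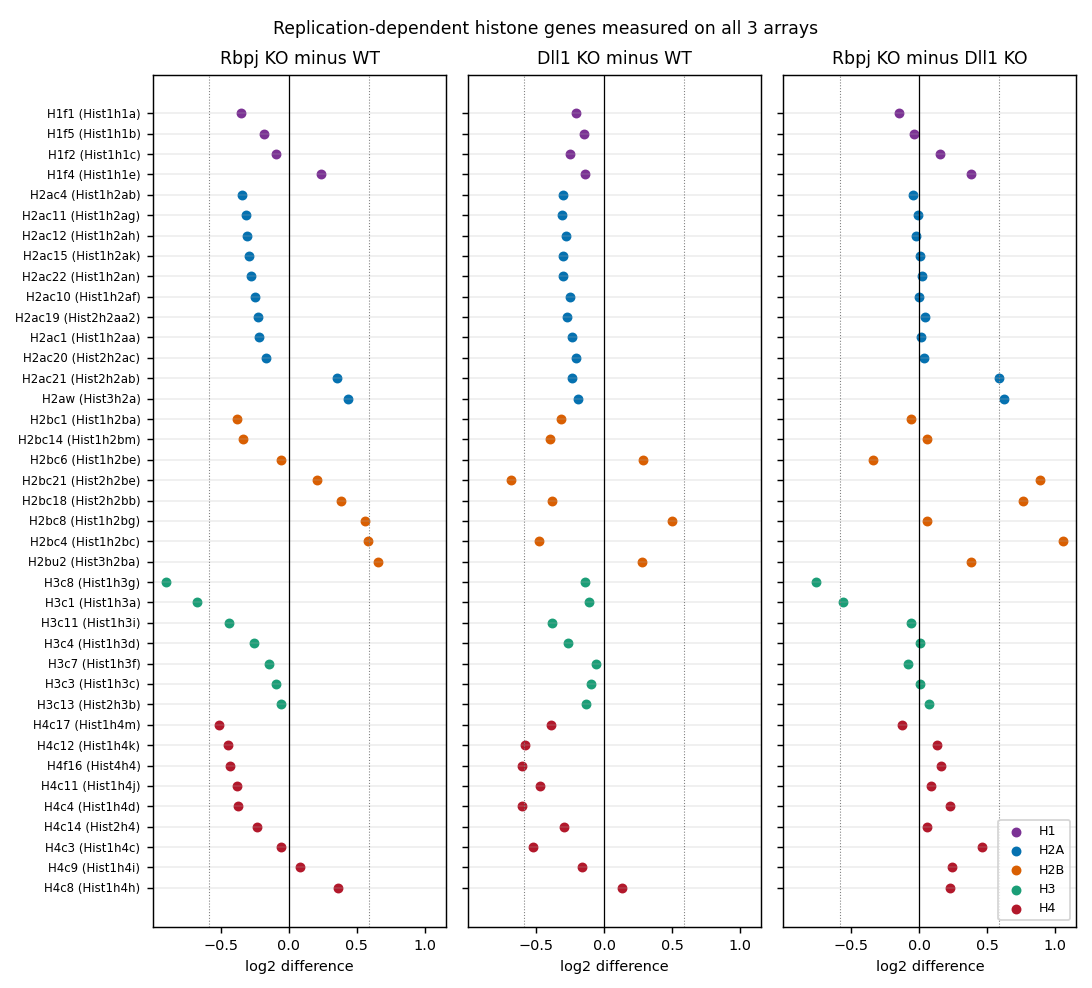
Log2 difference (x axis) of each of the 39 histone genes measured on all 3 arrays, 1 dot a gene, in 3 panels (Rbpj KO against WT, Dll1 KO against WT, Rbpj KO against Dll1 KO), with dotted lines at 1.5-fold and older names in brackets. H3c8 lies at -0.90 in Rbpj KO minus WT, H2bc21 at -0.68 in Dll1 KO minus WT and H2bc4 at 1.06 in Rbpj KO minus Dll1 KO, while the H2A genes other than H2aw and H2ac21 lie close together in each panel.

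The H2A genes formed a tight group with 2 exceptions. H2A pairs with H2B to form the dimers that flank the H3 and H4 tetramer. The median over 11 genes was -0.25 in Rbpj KO minus WT, and over 12 genes it was -0.26 in Dll1 KO minus WT, both below 0 under every alternative tried. A set of 7 probes, credited to H2ac10, H2ac11, H2ac12, H2ac15, H2ac19, H2ac20 and H2ac22, had signals of 35155 to 64038 in Rbpj KO and 38070 to 71561 in Dll1 KO, against 53529 to 99413 in WT. None of these was marked saturated. Their differences ran from -0.32 to -0.17 in Rbpj KO minus WT and from -0.31 to -0.20 in Dll1 KO minus WT, and from -0.02 to 0.04 between the knockouts.

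H2ac12 (Hist1h2ah), whose promoter is shown above, had levels of 8.82 in Rbpj KO and 8.85 in Dll1 KO, against 9.13 in WT. H2ac11 (Hist1h2ag) had levels of 8.30 in Rbpj KO and 8.32 in Dll1 KO, against 8.62 in WT. In both genes the knockout arrays were nearly equal and WT was higher, by 1.22-fold to 1.25-fold. The same held for H2ac15 (Hist1h2ak) at 6.51 in Rbpj KO and 6.51 in Dll1 KO, against 6.81 in WT, over its 2 probes. H2ac4 stood at -0.35 in Rbpj KO minus WT and -0.30 in Dll1 KO minus WT.

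These H2A genes have near-identical coding sequences, and probes for them may hybridise to several family members. Probe sequences were not used here, so the 7 near-equal differences cannot be read as separate measurements of 7 genes. The same limit applies to the H4, H3 and H2B probes. H2ac15 and H2ac19 had a second probe each, at -0.39 and -0.26 in Rbpj KO minus WT and at -0.37 and -0.34 in Dll1 KO minus WT. Their probes in the set of 7 stood at -0.20 and -0.19 in Rbpj KO minus WT and at -0.24 and -0.20 in Dll1 KO minus WT.

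The exceptions were H2aw and H2ac21, which were higher in Rbpj KO than in WT. H2aw (Hist3h2a), on chromosome 11, had levels of 2.56 in Rbpj KO and 1.93 in Dll1 KO, against 2.13 in WT. H2ac21 (Hist2h2ab), on chromosome 3, had levels of -1.15 in Rbpj KO and -1.74 in Dll1 KO, against -1.51 in WT. For both genes WT lay between the knockouts. The Rbpj KO minus WT values of 0.43 and 0.35 became -0.15 and -0.23 when arrays were scaled to the E1A spike-in spots. After normexp and quantile normalization they were 0.59 for H2aw, beyond 1.5-fold, and 0.16 for H2ac21. H2ac8 (Hist1h2ae) was well above background in Dll1 KO only, at least 1.72-fold higher than in WT. H2ac6 was measured in Dll1 KO and WT only, with a difference of -0.06.

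The H2B genes lay widely on both sides of WT, from -0.38 to 0.66 in Rbpj KO minus WT and from -0.68 to 0.50 in Dll1 KO minus WT. Their median over 8 genes was 0.29 in Rbpj KO minus WT, or -0.29 when scaled to the E1A spike-in spots, and -0.35 in Dll1 KO minus WT. In Rbpj KO, 3 lay below WT and 5 above, and in Dll1 KO 5 lay below and 3 above. H2bc4 (Hist1h2bc) had levels of -0.03 in Rbpj KO and -1.09 in Dll1 KO, against -0.62 in WT. H2bc18 (Hist2h2bb) had levels of 2.59 in Rbpj KO and 1.83 in Dll1 KO, against 2.21 in WT. H2bc21 (Hist2h2be) had levels of -2.06 in Rbpj KO and -2.95 in Dll1 KO, against -2.27 in WT. In all of these the Rbpj KO array was highest and the Dll1 KO array lowest.

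H2bc21 was dim, with signals of 33.9 in Rbpj KO, 20.1 in Dll1 KO and 36.8 in WT, close to the lowest signals well above background of 15.8, 13.6 and 19.2 on those arrays. Its Dll1 KO minus WT value of -0.68 was -0.09 after normexp and quantile normalization. H2bu2 (Hist3h2ba), which lies with H2aw in the chromosome 11 cluster, had levels of -0.38 in Rbpj KO and -0.76 in Dll1 KO, against -1.03 in WT. It was higher than WT in both knockouts, by 1.58-fold in Rbpj KO and 1.21-fold in Dll1 KO, and its Rbpj KO minus WT value was 0.33 after normexp and quantile normalization. H2bc8 (Hist1h2bg) had levels of -2.13 in Rbpj KO and -2.19 in Dll1 KO, against -2.68 in WT. It was likewise higher in both knockouts, by 1.47-fold and 1.41-fold, from signals of 27.7 to 34.2, and stood at 0.13 in Rbpj KO minus WT and 0.15 in Dll1 KO minus WT after normexp and quantile normalization.

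H2bc14 stood at -0.34 in Rbpj KO minus WT and -0.39 in Dll1 KO minus WT. H2bc6 stood at -0.06 in Rbpj KO minus WT and 0.29 in Dll1 KO minus WT. H2bc1 (Hist1h2ba), known as a testis histone, had levels of 2.18 in Rbpj KO and 2.25 in Dll1 KO, against 2.56 in WT, well above background on every array. H2ac1, the H2A testis histone beside it, stood at -0.22 in Rbpj KO minus WT and -0.23 in Dll1 KO minus WT. Whether the H2bc1 and H2ac1 probes read these testis genes or other members of their families was not analysed here. The testis linker histone H1f6 was above background in Dll1 KO alone, with a signal of 16.2. RefSeq lists more than 1 curated transcript for H2bc4 (2) and H2bc6 (3), and which of them each probe reads was not analysed here.

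**Figure D3:**
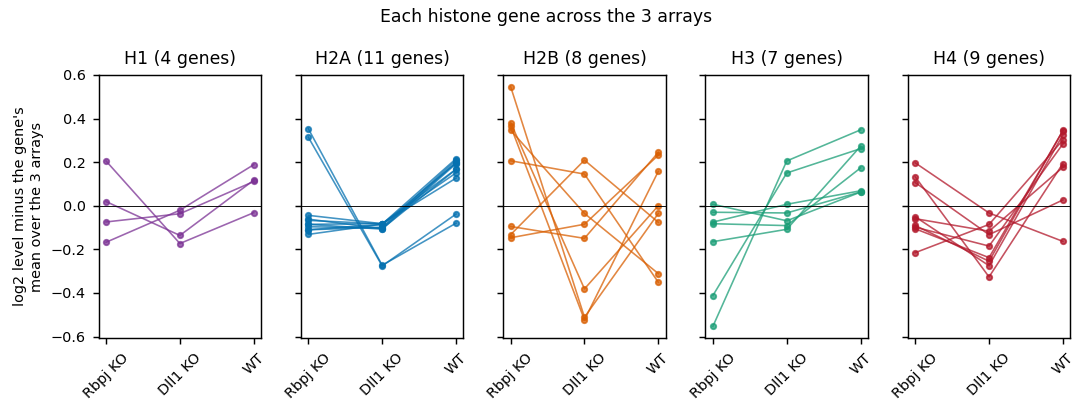
Level of each measured histone gene on the Rbpj KO, Dll1 KO and WT arrays, as log2 level minus the gene's mean over the 3 arrays (y axis), with 1 line a gene and a panel for each family. The H2A and H4 lines mostly end high at WT, with 9 of 11 H2A and 7 of 9 H4 genes below WT in Rbpj KO, and the H2B lines cross, with 3 of 8 below WT in Rbpj KO and 5 of 8 in Dll1 KO.

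All 7 measured H3 genes were lower than WT in both knockouts, except that H3c13 stood at 0.08 in Rbpj KO minus WT after normexp and quantile normalization and at 0.05 after the trend with level was removed by lowess. The family median was -0.26 in Rbpj KO minus WT and -0.13 in Dll1 KO minus WT. H3c8 (Hist1h3g) had levels of -0.61 in Rbpj KO and 0.15 in Dll1 KO, against 0.29 in WT. H3c1 (Hist1h3a) had levels of 0.82 in Rbpj KO and 1.38 in Dll1 KO, against 1.49 in WT. For both, Rbpj KO stood apart, 1.87-fold and 1.60-fold lower than WT, and Dll1 KO stood at -0.14 and -0.11 relative to WT. After normexp and quantile normalization the Rbpj KO minus WT values were -0.58 for H3c8 and -0.45 for H3c1, inside 1.5-fold.

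The other H3 genes had similar values in both knockouts. H3c11 (Hist1h3i) had levels of -0.09 in Rbpj KO and -0.04 in Dll1 KO, against 0.34 in WT. H3c4 (Hist1h3d) had levels of 5.89 in Rbpj KO and 5.88 in Dll1 KO, against 6.15 in WT. In these genes the knockouts were nearly equal at this scaling and both lower than WT. Under E1A scaling Rbpj KO minus Dll1 KO was -0.48 for H3c11 and -0.41 for H3c4. After normexp and quantile normalization H3c4 stood at -0.02 in Rbpj KO minus WT and 0.17 in Rbpj KO minus Dll1 KO. H3c7, H3c3 and H3c13 ran from -0.14 to -0.06 in Rbpj KO minus WT and from -0.13 to -0.06 in Dll1 KO minus WT.

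The linker histones were within 1.5-fold of WT in both knockouts. The median over 4 H1 genes was -0.14 in Rbpj KO minus WT, or 0.01 after normexp and quantile normalization, and -0.18 in Dll1 KO minus WT. H1f1 (Hist1h1a) had levels of 0.35 in Rbpj KO and 0.49 in Dll1 KO, against 0.70 in WT. H1f4 (Hist1h1e), a major somatic H1, had levels of 5.37 in Rbpj KO and 4.99 in Dll1 KO, against 5.13 in WT, and its Rbpj KO minus WT value of 0.24 turned to -0.35 under E1A scaling. H1f2 (Hist1h1c) had levels of 0.81 in Rbpj KO and 0.66 in Dll1 KO, against 0.91 in WT. H1f5 stood at -0.19 in Rbpj KO minus WT and -0.15 in Dll1 KO minus WT. H1f4 thus lay above WT in Rbpj KO, and the other 3 genes lay below WT in both knockouts, apart from H1f2 at 0.04 in Rbpj KO minus WT after normexp and quantile normalization.

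Set against each other, the knockouts differed in a few H2A, H2B and H3 genes. The median over 39 members was 0.04 in Rbpj KO minus Dll1 KO, beside -0.03 over all genes, and -0.38 beside -0.45 when scaled to the E1A spike-in spots, or -0.08 beside -0.15 when scaled to the array median. Of the members, 20 were within the typical spot error of 0.0957, and 13 of 39 lay below 0, beside 55.1% of all genes. H2bc4, H2bc21, H2bc18, H2aw and H2ac21 were at least 1.5-fold higher in Rbpj KO than in Dll1 KO, 5 of 39, beside 5.24% of all measured genes. H3c8 was at least 1.5-fold lower, beside 6.34% of all genes. At 2-fold, 1 member (H2bc4) was higher, beside 1.55% of genes, and none lower, beside 2.61%. H2bc4 was 2.08-fold higher in Rbpj KO than in Dll1 KO, H2bc21 1.85-fold, H2bc18 1.70-fold, H2aw 1.54-fold and H2ac21 1.51-fold. After normexp and quantile normalization the values were 0.60 for H2bc4, 0.78 for H2bc18 and 0.77 for H2aw, but 0.16 for H2bc21, 0.30 for H2ac21 and -0.44 for H3c8, which lie inside 1.5-fold.

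By genomic cluster, the main cluster on chromosome 13 held 56 members, of which 29 were measured, with medians of -0.28 in Rbpj KO minus WT and -0.26 in Dll1 KO minus WT. The 7 measured genes of the chromosome 3 cluster had medians of -0.06 in Rbpj KO minus WT and -0.27 in Dll1 KO minus WT. The 2 genes of the chromosome 11 cluster, H2aw and H2bu2, had a median of 0.55 in Rbpj KO minus WT and 0.04 in Dll1 KO minus WT, but under E1A scaling H2aw stood at -0.15 and H2bu2 at 0.07 in Rbpj KO minus WT. Of the 5 genes at least 1.5-fold higher in Rbpj KO than in Dll1 KO, H2ac21, H2bc18 and H2bc21 belong to the chromosome 3 cluster, H2aw to that of chromosome 11 and H2bc4 to that of chromosome 13.

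Promoter windows from RefSeq on GRCm38.p6 were found for 62 members, 63 windows in all. CCAAT, the box bound by NF-Y, was in all 51 windows of H1, H2A, H2B and H3 genes and in 3 of 12 H4 windows, beside 37.4% of 32851 promoter windows of all genes. TATAAA was in 55.6% of member windows and 13.6% of all windows. The octamer ATTTGCAT, a site for POU factors such as Pou2f1, was in 7 of 18 H2A windows, 7 of 17 H2B windows and no H1, H3 or H4 window, beside 1.74% of all windows. GGTCCG, chosen after the sequences were seen and known in human cells as part of the site for HINFP, was in 11 of 12 H4 windows, 2 of 51 other member windows and 8.25% of all windows. TGGGAA, the core letters of RBPJ sites, was in 22.2% of member windows and 25.6% of all windows, with 1 of 12 among the H4 windows. The H3c8 window holds TGGGAA, and the other 5 windows printed above do not. Other measured members with it were H2bc1 at -0.38, H2ac11 at -0.32, H3c3 at -0.09, H4c3 at -0.06 and H2ac21 at 0.35 in Rbpj KO minus WT. H3c1 had no promoter window. Whether TGGGAA bears on these differences was not tested. Each motif was searched on both strands, and a match is a run of letters, not a site shown to be bound.

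The H2A and H2B genes often lie head to head. For 10 pairs on opposite strands, all on chromosome 13, the windows overlap by 220 to 279 bases, so the motif counts of such a pair share letters. The H2ac12 window printed above shares 277 bases with that of H2bc12, and its octamer lies in both. Among measured genes, H2ac1 and H2bc1 form such a pair and stood at -0.22 and -0.38 in Rbpj KO minus WT and at -0.23 and -0.32 in Dll1 KO minus WT.

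**Figure D4:**
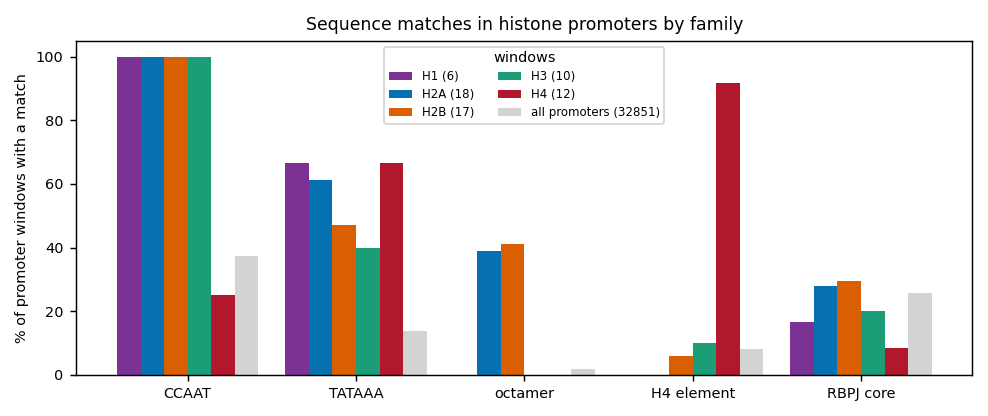
Share of promoter windows with a match on either strand (y axis, %) for 5 motifs (x axis), by histone family and for all promoters, with the number of windows in brackets. CCAAT is in 100% of H1, H2A, H2B and H3 windows and 25.0% of H4 windows, and the H4 element GGTCCG is in 91.7% of H4 windows beside 8.25% of all promoters.

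The measured replacement histones lay within 1.5-fold of WT. Over 9 measured of 11 genes the median was -0.11 in Rbpj KO minus WT and -0.09 in Dll1 KO minus WT, with none 1.5-fold apart. Macroh2a1, a large H2A variant, had levels of 0.85 in Rbpj KO and 0.96 in Dll1 KO, against 1.30 in WT. Cenpa, the centromeric H3, had levels of 0.41 in Rbpj KO and 0.45 in Dll1 KO, against 0.84 in WT. Both were lower than WT on both knockout arrays, by 1.26-fold to 1.36-fold. H3f3a and H3f3b, both of which encode H3.3, were between -0.05 and 0.00 in both comparisons, and H2az1 stood at 0.04 in Rbpj KO minus WT and -0.05 in Dll1 KO minus WT. These last 3 genes were named after their values were seen, as were H2ax and H2az2, which lay farther from WT. H2ax stood at -0.40 in Rbpj KO minus WT and -0.06 in Dll1 KO minus WT. For H2az2 the values were -0.14 in Rbpj KO minus WT and -0.24 in Dll1 KO minus WT.

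Genes that transcribe and process histone messengers had a median of -0.14 in Rbpj KO minus WT and -0.03 in Dll1 KO minus WT over 22 measured of 24. Srrt, Lsm11 and E2f1 were at least 1.5-fold lower in Rbpj KO than in WT, 3 of 22, beside 6.91% of all genes. Srrt, which links the cap-binding complex to RNA processing, had levels of -0.79 in Rbpj KO and -0.40 in Dll1 KO, against -0.11 in WT. Lsm11, a protein of the U7 particle that cuts the histone messenger's end, had levels of -1.10 in Rbpj KO and -0.67 in Dll1 KO, against -0.49 in WT. E2f1, a transcription factor of S phase genes, had levels of 0.95 in Rbpj KO and 1.56 in Dll1 KO, against 1.54 in WT. All were lowest in Rbpj KO, and none was 1.5-fold apart in Dll1 KO. Slbp, named for its role after its value was seen, stood at -0.10 in Rbpj KO minus WT and -0.03 in Dll1 KO minus WT, and Npat, a coactivator of histone genes, was not above background on any array.

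Histone chaperones, which carry histones to chromatin, had a median of -0.18 in Rbpj KO minus WT and -0.02 in Dll1 KO minus WT over 23 genes. Chaf1a, the large subunit of the replication-coupled assembly factor CAF-1, was the only one 1.5-fold apart from WT, with levels of 0.11 in Rbpj KO and 0.76 in Dll1 KO, against 0.87 in WT. It was 1.69-fold lower in Rbpj KO.

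Most DNA synthesis genes were lower in Rbpj KO than on either of the other arrays. Their median over 23 genes was -0.52 in Rbpj KO minus WT, 0.01 in Dll1 KO minus WT. In Rbpj KO minus Dll1 KO it was -0.46. In Rbpj KO 22 of 23 lay below WT, beside 60.2% of all genes, and 7 were at least 1.5-fold lower, beside 6.91%. In Dll1 KO 10 of 23 lay below WT, beside 55.7% of all genes, and none was 1.5-fold apart. Fen1, the flap endonuclease of lagging strand synthesis, had levels of 3.56 in Rbpj KO and 4.11 in Dll1 KO, against 4.26 in WT. Rrm1, the large subunit of ribonucleotide reductase, had levels of 1.92 in Rbpj KO and 2.56 in Dll1 KO, against 2.62 in WT. Rpa2, a subunit of the single-strand DNA binding complex, had levels of 2.98 in Rbpj KO and 3.49 in Dll1 KO, against 3.64 in WT, and Rfc3, a clamp loader subunit, stood at -0.64 in Rbpj KO minus WT. In Dll1 KO these 4 genes lay between -0.27 and -0.06 of WT.

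Side by side, the Dll1 KO array had histone genes at -0.26 and DNA synthesis genes at 0.01 relative to WT, and the Rbpj KO array had them at -0.23 and -0.52. The sums given above of 3 B cell markers and of both CD8 markers were lower in Rbpj KO than in Dll1 KO or WT, as were the DNA synthesis median, H3c8 and H3c1. The B cell marker Cd79a went the other way, at 1.13 in Rbpj KO minus Dll1 KO. What part B cells or CD8 cells had in these differences was not tested. Whether the messengers read by the probes carried poly(A) tails was not measured.

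**Figure D5:**
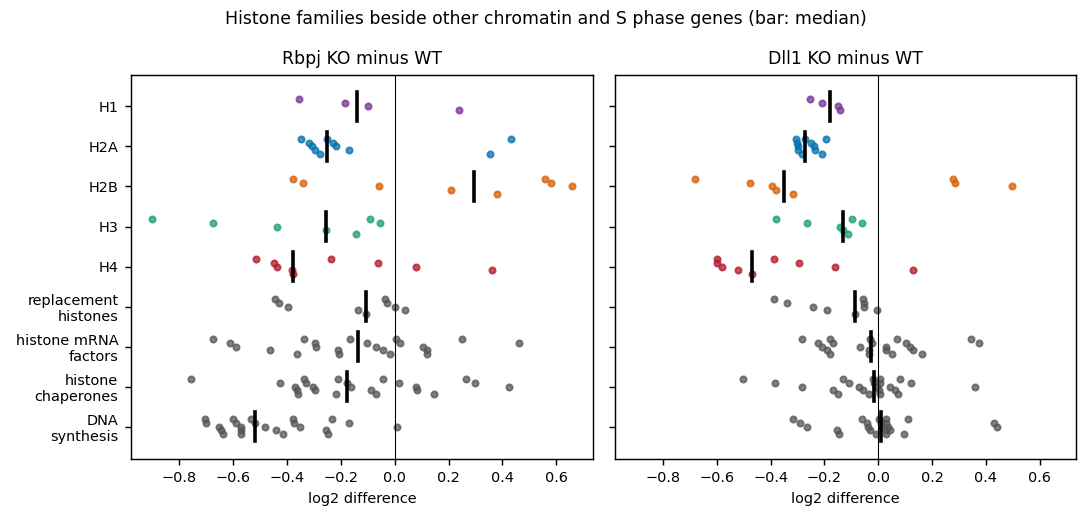
Log2 difference (x axis) of each gene in the 5 histone families and 4 related gene lists, 1 dot a gene, with a bar at the median, in Rbpj KO minus WT and Dll1 KO minus WT. The DNA synthesis median is -0.52 in Rbpj KO minus WT and 0.01 in Dll1 KO minus WT, and the H2B median of 0.29 in Rbpj KO minus WT becomes -0.29 under E1A scaling.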

How the data were processed

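The members and gene lists were chosen with earlier results of these data known, and all values describe 3 arrays with 1 per group. RNA (20 ng per the labels' protocols) was amplified with a low-input Cy3 labelling kit and read with Agilent Feature Extraction 10.7, per the submitters' processing notes (10.7.1.1 in the file headers). Such kits prime from poly(A), as background, and messengers ending in a stem-loop may be copied unevenly. The authors deposited processed signal intensity per spot, background-subtracted per the file headers, and a table of log2 values, which equalled the log2 signal plus a constant for each array within 0.01 for 100% of probes, with column medians of -3.28 in Rbpj KO, -3.40 in Dll1 KO and -3.44 in WT. The intensity columns were used. All 3 arrays lie on 1 slide per the file headers.

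Control spots and outlier spots (139 in Rbpj KO, 163 in Dll1 KO, 143 in WT) were left out, spots of 1 probe were averaged, and log2 signal minus the array's 75th percentile gave the level. Probes were named through RefSeq accessions (27507 of 55678, 49.4%). Gene levels are means over those probes that exceed background (by the scanner software's flag) on 1 array or more, and a comparison needs a probe that does so on both arrays. Where 1 array exceeds it, the fold is a bound against whichever is higher of 2 signals on the dim array, that of the dim probe or the lowest one flagged. Members have 1 spot per probe, and the number of arrays limits the precision. Genes named with values are those 1.5-fold apart in any comparison, the 2 with the largest difference in each family and comparison with WT, and, in other lists, up to 4 that were 1.5-fold apart or else the largest 2. Other genes named were chosen after their values were seen.

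Alternatives were normexp on median spot and background signals with an offset of 50 and quantile normalization (limma 3.58.1, R 4.3.3), scaling to the array median or to E1A spike-in spots, other filters on dim probes, the upper or lower rows of the array, 1 probe per gene, a 2-fold size, and removal of a trend with level by lowess. The summaries were computed in Python 3.11.15 with pandas 2.3.3 and were tested on simulated data.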

Additional observations from a re-analysis of the deposited data

How the results depend on the processing

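No paired analysis was possible because each group has 1 array. Every alternative to the members' medians with WT kept them below 0, from -0.18 to -0.43 in Dll1 KO and from -0.09 to -0.81 in Rbpj KO. E1A scaling moved the medians to -0.81 in Rbpj KO minus WT and -0.38 in Rbpj KO minus Dll1 KO, by its construction the same shift for every gene, and moved the all-gene medians to -0.66 and -0.45. Array-median scaling moved the all-gene medians to -0.24 and -0.15.

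Counts of members 1.5-fold apart moved more. In Rbpj KO against WT, 2 members were lower, and the count was 0 at 2-fold, with normexp and quantile normalization or with the upper rows alone, 29 with E1A scaling and 6 with array-median scaling. The single higher member became 0 at 2-fold, with the upper rows alone, E1A or array-median scaling, 3 with no filter on dim probes and 2 with lowess. With normexp and quantile normalization the count stayed at 1, but the member was H2aw at 0.59, with H2bu2 at 0.33. In Dll1 KO against WT, the 3 lower members became 0 at 2-fold, with normexp and quantile normalization or with the upper rows alone, 7 with E1A scaling and 1 with lowess, and the count of 0 higher members became 2 with no filter. In Rbpj KO against Dll1 KO, the 5 higher members became 1 at 2-fold or with E1A scaling, 3 with normexp and quantile normalization or array-median scaling, and 2 with either the upper or the lower rows alone. The 1 lower member became 0 at 2-fold, with normexp and quantile normalization or with the upper rows alone, 2 with no filter or array-median scaling and 3 with E1A scaling.

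A 2-fold size and part of the rows leave fewer candidates by construction. Scaling to the E1A spots or to the array median shifts every gene in a comparison by the same amount. Leaving out the filter adds dim probes. The offset of 50 used with normexp shrinks log2 differences between dim signals, such as those of H2bc21 and H2bc8. What part of the normexp shifts came from this offset or from quantile normalization was not tested. The cause of any other shift was not tested either. The lowess alternative was chosen after seeing the data. Adding probes by a gene name column was not run, since the arrays' spot tables used here give accessions only. Of 222 alternative values, family medians included, 180 stayed within the tolerance (0.36 on the log2 scale for medians, 1.5 times for counts) and 42 moved. The tolerance for medians is larger than the members' medians, so a median can change sign and stay within it. The H1 median in Rbpj KO minus WT did so, from -0.14 to 0.01 with normexp and quantile normalization. The count of 180 is therefore no measure of stability. Signals near 13.6 to 19.2, the lowest well above background, limit H2bc21, H2bc8, H1f6, H2ac6 and H2ac8.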
